A study of Mus musculus with 5 samples.

Results

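Oxidative phosphorylation genes were taken from the deposited gene table by their symbols: Nduf, Uqcr, Sdh, Atp5 and Cox4 to Cox8 for the nuclear genes, and mt-Nd, mt-Co, mt-Cytb and mt-Atp for the mitochondrial ones. The rule gave 109 of 27998 genes, of which 96 were nuclear and 13 mitochondrial, and all 109 were found by identifier in the GENCODE annotation of the mouse genome (GRCm38). The nuclear genes comprised 38 of complex I, 4 of complex II, 8 of complex III, 18 of complex IV, 17 of complex V and 11 assembly factors. The mitochondrial genes comprised 7 of complex I, 1 of complex III, 3 of complex IV and 2 of complex V. Complexes follow the symbols: Atp5sl, counted under complex V, is named Dmac2 in GENCODE and is known as a complex I assembly factor. No pseudogene symbol ending in -ps met the rule.

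Oxidative phosphorylation makes ATP in the inner mitochondrial membrane: complexes I to IV pass electrons to oxygen and pump protons, and complex V, the ATP synthase, uses the proton gradient. Each complex except complex II is built from proteins of both genomes, so that transcripts made in the nucleus and transcripts made in the organelle have to supply the same assembly. In the intestinal epithelium, dividing crypt cells mature into absorptive enterocytes as they move up the villus, and mitochondria are abundant in enterocytes.

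The tissue was ileum, the distal end of the small bowel, from which epithelial cells were isolated. The mice were C57BL/6 and 8 to 12 weeks old. Mice had either a sham operation (3 libraries) or a resection of part of the small bowel (2 libraries). Each library was made with the 10x Genomics droplet method (3′ chemistry, version 2), which tags every captured molecule with a unique molecular identifier (UMI), so that a transcript is counted once whatever its length. The labels do not say whether libraries came from separate mice, so p-values measure only the spread between these libraries.

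Libraries held between 1402 and 7233 cells, 11749028 and 41281731 UMIs, and a median of 4541 to 6239.5 UMIs per cell. After filtering, 18235 cells in 20 clusters remained. Clusters were made without the oxidative phosphorylation genes and named from marker genes: enterocyte-like (Alpi, Apoa1), immature enterocyte-like (Gsdmc2, Gsdmc4), crypt (stem-like and cycling-like together, Olfm4, Mki67), goblet-like (Muc2), Paneth-like (Lyz1, Defa24) and T cell-like (Cd3g). Clusters also split by library. Immature enterocyte-like, cycling-like and Paneth-like clusters put sham 1 with resection 1 on one side and sham 2, sham 3 and resection 2 on the other, whereas stem-like, goblet-like and T cell-like clusters held all 5 libraries. These groups of libraries are called set A and set B below; the grouping was chosen with the values known and the labels name no batch. Of the immature enterocyte-like cells, cluster 9 held 249 of 252 from sham 1 and 733 of 747 from resection 1, but 6 from the other libraries together. Enterocyte-like cells of each library lay mostly in clusters of their own: 92.3% of those of sham 1 were in cluster 11, 86.9% of those of sham 2 in cluster 4 and 86.6% of those of sham 3 in cluster 6. Those of resection 1 were in clusters 5 (52.9%) and 8 (42.2%), and those of resection 2 in clusters 1 (59.4%) and 7 (28.6%), so that differences between libraries in this class are also differences between clusters. In this class the clusters did not join the set A libraries: sham 1 and resection 1 overlapped by 4.72% in their makeup by cluster, less than sham 1 overlapped any set B library (5.97% to 6.84%), while set B libraries overlapped each other by 11.6% to 14.1%. Pairs of libraries shared 6 to 47 cell barcodes.

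The 2 mitochondrial gene pairs that share more than 1 base on the same strand are shown first, because a read there belongs to both genes. mt-Atp6 and mt-Co3 share 1 base, and mt-Nd5 and mt-Nd6 overlap on opposite strands. The start of mt-Atp6 overlaps the end of mt-Atp8 over 43 bases at chrM:7927-7969 (plus strand, GRCm38), and the start of mt-Nd4 overlaps the end of mt-Nd4l over 7 bases at chrM:10167-10173. Capitals mark the start codon of the downstream gene.
mt-Atp8 and mt-Atp6: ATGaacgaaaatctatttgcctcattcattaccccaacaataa
mt-Nd4l and mt-Nd4: ATGctaa
Both pairs are transcribed as shared messages. In enterocyte-like cells, mt-Atp8 took 0.653% to 1.14% of the UMIs of its pair and mt-Nd4l took 2.10% to 3.83% of its pair, over the 5 libraries. How reads in shared bases were assigned is not given in the sources used here, so the values of mt-Atp8 and mt-Nd4l are uncertain.

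Mitochondrial and nuclear transcripts were first compared as shares of UMIs. In enterocyte-like cells the 13 mitochondrial genes took 14.5% of all UMIs in sham 1, 9.70% in sham 2, 8.23% in sham 3, and 12.4% and 9.74% in resection 1 and 2. The 96 nuclear genes took 4.40%, 5.41%, 6.31%, 4.46% and 5.73% of the UMIs that were not mitochondrial, in the same order. Within resection 2, the nuclear share was 6.76% in cluster 7 and 5.09% in cluster 1, while the mitochondrial shares were 10.0% and 9.77%. The libraries with the most mitochondrial UMIs, sham 1 and resection 1, were those with the fewest nuclear oxidative phosphorylation UMIs, and the sham and resection libraries overlapped in both measures. The log2 ratio of mitochondrial to nuclear UMIs was 1.95, 0.99 and 0.51 in sham 1 to 3 and 1.66 and 0.91 in resection 1 and 2.

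Crypt cells held a lower mitochondrial share and a higher nuclear share than enterocyte-like cells of the same library. The mitochondrial share in crypt cells was 12.96%, 8.04%, 6.66%, 10.5% and 8.06% (sham 1, 2 and 3, resection 1 and 2), which was 1.66 ± 0.142 percentage points below enterocyte-like cells on average (SD of the differences, n = 5 libraries; lower in 5 of 5). Among cells with at most 10% mitochondrial counts, the difference was -0.97 points. That limit cuts on the measured quantity itself, and 8630 of 19404 cells were over it. The nuclear share in crypt cells was 5.30%, 6.84%, 6.64%, 5.96% and 6.73%, a difference of 1.03 ± 0.466 points (SD, n = 5; higher in 5 of 5). The log2 ratio of mitochondrial to nuclear UMIs changed by -0.54 ± 0.12 (SD, n = 5). Complex by complex, the change in this ratio was -0.41 for complex I, -0.30 for complex III, -0.62 for complex IV and -0.33 for complex V, each lower in 5 of 5 libraries.

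Other classes differed too. Immature enterocyte-like cells had the highest nuclear share, 5.86% in sham 1 and 6.73% to 7.52% in the other libraries, which was 1.66 ± 0.391 points above enterocyte-like cells (SD, n = 5), and their mitochondrial share was 1.04 ± 0.396 points lower on average. Goblet-like cells, which secrete mucus, differed the other way: their mitochondrial share was 1.15 ± 0.421 points above that of enterocyte-like cells and higher in 5 of 5 libraries, at 15.8%, 10.5%, 8.82%, 14.0% and 11.1%. Their nuclear share was lower in 4 of 5 libraries, by 0.211 ± 0.225 points on average, a difference no larger than its SD. Paneth-like cells, which secrete antimicrobial peptides, had the lowest shares of both kinds: 1.43% to 4.12% mitochondrial and 0.427% to 1.38% nuclear. Their median of 5797 to 19452 UMIs per cell was above that of enterocyte-like cells in every library. Their ratio was higher than in enterocyte-like cells in 3 libraries and lower in 2.

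**Figure D1:**
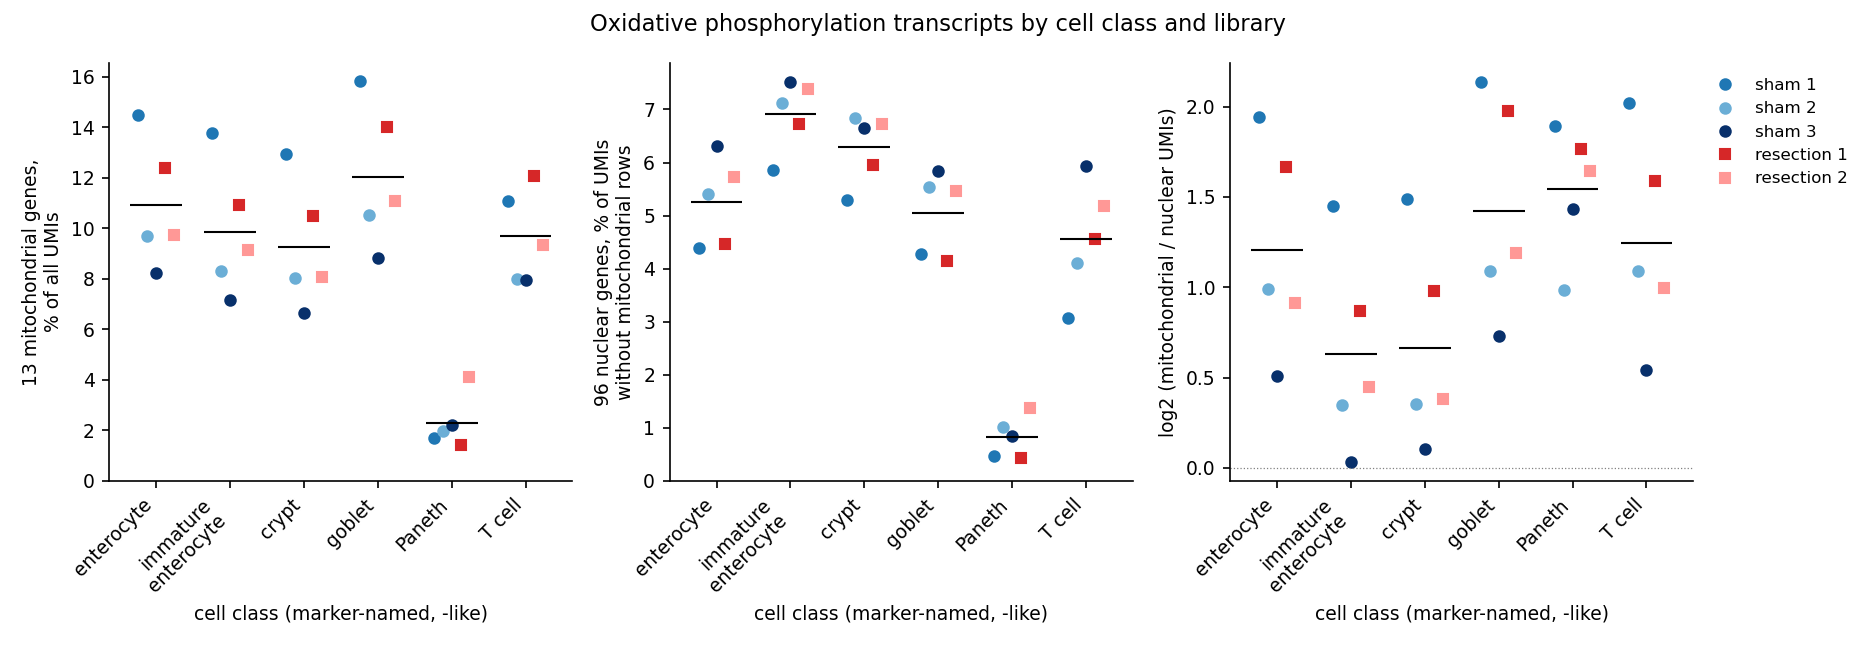
Share of all UMIs from the 13 mitochondrial genes (left, %), share of non-mitochondrial UMIs from the 96 nuclear genes (middle, %) and log2 ratio of mitochondrial to nuclear UMIs (right) by cell class. Points are libraries (circles sham, squares resection) and bars are means of 5 libraries. Crypt and immature enterocyte-like cells lie below enterocyte-like cells in the right panel in every library, and sham 1 and resection 1 lie above the other 3 libraries there in every class shown.

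Depth and RNA quality moved with these differences. Crypt cells had a median of 5415.5 to 7363 UMIs and enterocyte-like cells 4033.5 to 6157. Among enterocyte-like cells of each library, the deepest of 4 equal bins of cells by UMIs had a log2 ratio of 2.02 in sham 1, 0.80 in sham 2, 0.45 in sham 3, and 1.49 and 0.77 in resection 1 and 2. The shallowest bins had 1.95, 1.46, 0.91, 1.91 and 1.31 in the same order. Within this class the ratio was thus lower in the deepest than in the shallowest bin in every library except sham 1. The crypt values of the same libraries were 1.49, 0.35, 0.10, 0.98 and 0.38. The deepest bins held a median of 6963.5 to 12499 UMIs per cell. The nuclear RNAs Malat1, Neat1 and Kcnq1ot1, which measure nuclear content or damage, took 1.55% to 2.22% of UMIs in enterocyte-like cells and 0.531% to 0.809% in crypt cells. Dissociation and stress genes took 0.260% to 0.447% in enterocyte-like cells and 0.146% to 0.283% in crypt cells. The part of depth and of RNA quality in the class differences was not tested.

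Single genes were then compared between crypt and enterocyte-like cells with UMIs summed per library and class, in edgeR's quasi-likelihood test with the library as a block. Values below are CPM (counts scaled to a fixed total) with TMM scaling, a method that sets the bulk of genes level between sums. This scale matters here. With TMM the median log2 change of all 9627 genes tested was -0.05, and with totals alone it was 0.50, so that changes below are relative to the bulk of genes. At a Benjamini-Hochberg adjusted p under 0.05, 79.9% of all genes tested were called: 38.8% were higher in crypt cells and 41.0% were lower. A call by itself therefore says little about a gene. Clusters rest on other genes of the same cells.

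Of 13 mitochondrial genes, 12 passed the filter on low counts, and 11 of these fell in crypt cells and none rose, with a median log2 change of -0.62. With totals alone 3 were called lower (mt-Co1, mt-Co2 and mt-Nd3, against 25.6% of all genes), 1 was called higher (mt-Nd4l) and the others did not pass (median -0.08). Relative to the median of all genes, the mitochondrial median was -0.57 with TMM and -0.58 with totals alone. The exception among those tested was mt-Nd4l, a complex I subunit, at -0.11 ± 0.12 (SE, edgeR adjusted p = 0.389), and mt-Nd6 was not tested.

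The catalytic subunits of complex IV changed most among the mitochondrial genes. mt-Co1, the subunit where oxygen is reduced, measured 35888, 25467, 17216, 35474 and 23366 CPM in enterocyte-like cells (sham 1, 2 and 3, resection 1 and 2). In crypt cells of the same libraries it measured 16473, 8277, 6995, 12090 and 8388 CPM. Crypt values were lower in every library and the 2 classes did not overlap. The log2 change was -1.42 ± 0.14 (SE, edgeR quasi-likelihood, adjusted p = 3.74e-07), and mt-Co1 fell from 16.4% to 24.3% of mitochondrial UMIs in enterocyte-like cells to 11.2% to 17.2% in crypt cells. mt-Co2 and mt-Co3, which complete the core of complex IV, fell by 0.90 and 0.82 on the log2 scale.

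Complex I subunits of the mitochondrial genome changed less evenly. mt-Nd3 fell by 0.80, mt-Nd5 by 0.75, mt-Nd4 by 0.66, mt-Nd2 by 0.45 and mt-Nd1 by 0.32 on the log2 scale. With totals alone the log2 changes of mt-Nd2, mt-Nd1 and mt-Nd4l were 0.09, 0.22 and 0.43, so their direction depends on the scaling. The levels of mt-Nd1 show how small the change was: 9485, 9309, 9510, 9467 and 10206 CPM in enterocyte-like cells against 8371, 7882, 6782, 7632 and 7763 CPM in crypt cells. mt-Cytb, the cytochrome b of complex III, fell by 0.54 on the log2 scale. The ATP synthase membrane subunits mt-Atp6 and mt-Atp8 fell by 0.58 and 0.56.

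**Figure D2:**
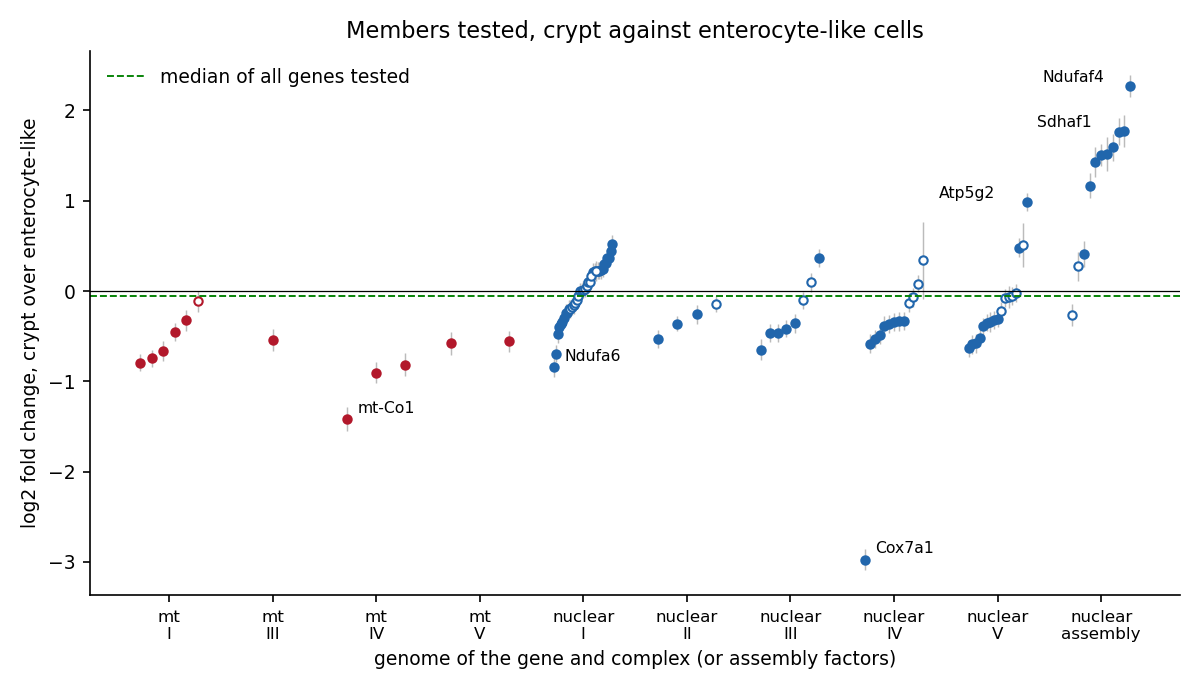
Log2 fold change, crypt over enterocyte-like cells (y axis), of each oxidative phosphorylation gene tested, grouped on the x axis by genome and complex. Points are edgeR estimates on the TMM scale, thin lines are ± 1 SE over 5 libraries, filled points passed an adjusted p of 0.05 and the dashed line is the median of all genes tested. Mitochondrial genes lie below 0, the structural nuclear genes lie on both sides, and 9 of 11 assembly factors are called above 0.

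Of 96 nuclear genes, 90 passed the filter. Of these, 24 were called higher in crypt cells and 35 lower, with a median log2 change of -0.10. Both counts were a share at or below that of all genes tested (38.8% higher and 41.0% lower), so they are no result about the family. The 6 not tested were Cox7b2, Cox8b and Cox8c, with no UMI in the kept cells, and Ndufa4l2, Cox4i2 and Cox6a2, with few. With totals alone 59 nuclear genes were called higher and 2 lower, against 54.4% and 25.6% of all genes. The nuclear median lay 0.048 log2 below that of all genes with TMM and 0.055 below it with totals alone. Annotated genes on the opposite strand overlap some of these genes, among them Sdhaf1, Ndufaf2, Uqcrb and Atp5o. Annotated genes on the same strand overlap others, among them Cox4i1, Ndufc2, Ndufa13, Ndufb9, Ndufb8 and Atp5g2. Atp5o also overlaps a further annotated entry of the same name on its own strand. The counts of all these genes are uncertain to that extent. Groups of nuclear genes differed in direction: 9 of 11 assembly factors were called higher and none lower (median 1.51), whereas of 79 structural genes tested 15 were called higher and 35 lower (median -0.16). With totals alone the assembly factors were all called higher (11 of 11, median 2.05), as were 48 structural genes, with 2 lower (median 0.38). The sign of the structural median thus depends on the scaling and that of the assembly median does not. Relative to the median of all genes (-0.05 with TMM, 0.50 with totals alone), the structural median was lower on both scales. Sdhaf2 was at -0.27 with TMM but among those called higher with totals alone.

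Assembly factors put complexes together and are not part of the finished enzyme. Ndufaf4, a complex I assembly factor, measured 11.04, 12.2, 17.5, 12.2 and 13.6 CPM in enterocyte-like cells (sham 1, 2 and 3, resection 1 and 2) and 40.1, 70.8, 93.6, 49.0 and 68.3 CPM in crypt cells. Every crypt value was above every enterocyte-like value. The log2 change was 2.27 ± 0.12 (SE, edgeR adjusted p = 1.03e-09). Sdhaf1, which helps place iron-sulfur clusters in succinate dehydrogenase, rose by 1.77 ± 0.18 on the log2 scale, from 5.66 to 17.2 CPM in enterocyte-like cells to 21.8 to 46.1 CPM in crypt cells. Ndufaf2, a late complex I assembly factor, rose by 1.51 ± 0.13, from 12.3 to 39.6 CPM to 48.4 to 88.6 CPM. Ndufaf6 (1.77), Ndufaf7 (1.59), Sdhaf3 (1.51), Ndufaf5 (1.43), Ndufaf1 (1.17) and Ndufaf3 (0.41) were also called higher on the log2 scale. Sdhaf4 (0.27) and Sdhaf2 (-0.27) did not pass the test. As a group, assembly factors took 0.0441% of non-mitochondrial UMIs in crypt cells and 0.0144% in enterocyte-like cells, on average over 5 libraries.

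Among structural genes, complex I had 12 of 37 tested genes called higher and 9 lower (median 0.02), and 31 higher and 1 lower with totals alone. Of all genes, 38.8% were called higher and 41.0% lower, and 54.4% and 25.6% with totals alone. Ndufc2, an accessory subunit of the membrane arm, was among the higher: it measured 133, 237, 353, 167 and 280 CPM in enterocyte-like cells and 196, 416, 419, 236 and 392 CPM in crypt cells. Its log2 change was 0.52 ± 0.10 (SE, edgeR adjusted p = 3.03e-04). Ndufa6, an accessory subunit near the quinone site, fell by 0.85 ± 0.10 on the log2 scale, from 420 to 992 CPM to 281 to 552 CPM. Ndufa1, an accessory subunit of the membrane arm, fell by 0.69 (-0.15 with totals alone, which did not pass). Ndufa2 changed by -0.24, which became 0.30 with totals alone. Ndufa4, which carries a complex I symbol but is now assigned to complex IV, was at 0.22 (edgeR adjusted p = 0.0887).

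Complexes II, III, IV and V had more genes called lower than higher with TMM: 3 lower and none higher of 4, 5 lower and 1 higher of 8, 9 lower and none higher of 13, and 9 lower and 2 higher of 17. With totals alone 2, 3, 3 and 9 genes were called higher and 0, 0, 1 and 0 lower. Of all genes, 38.8% were called higher and 41.0% lower with TMM, and 54.4% and 25.6% with totals alone. The medians of these complexes were -0.31, -0.39, -0.34 and -0.31 with TMM (all genes -0.05). With totals alone they were 0.23, 0.15, 0.20 and 0.23 (all genes 0.50), so each lay below the median of all genes on both scales. In complex II, Sdhb (iron-sulfur subunit) and Sdha (flavoprotein) changed by -0.53 and -0.36 on the log2 scale, and by 0.01 and 0.18 with totals alone. In complex III, Uqcrb, a small subunit beside the quinone site, fell by 0.65 (-0.11 with totals alone, which did not pass). Uqcrq changed by -0.47, and by 0.07 with totals alone. Uqcr11 was at 0.10 (edgeR adjusted p = 0.395). In complex IV, Cox4i1, the largest nuclear subunit, fell by 0.58, from 2682, 3661, 4230.0, 2840 and 3903 CPM to 1762, 2475, 2491, 2018 and 2773 CPM. With totals alone its log2 change was -0.045 and did not pass. Cox6a1, Cox8a and Cox6b1 changed by -0.53, -0.38 and -0.33, and by 0.01, 0.16 and 0.21 with totals alone. In complex V, Atp5o, the subunit that joins the catalytic head to the peripheral stalk, fell by 0.63 (-0.093 with totals alone, which did not pass). Atp5b, the catalytic beta subunit, changed by -0.35 and Atp5j2 by -0.34, and these were 0.19 and 0.20 with totals alone.

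Alternative subunits were compared as shares within their family, which do not depend on the scaling of whole libraries. Cox7a1 is the form of complex IV subunit 7a known from heart and skeletal muscle, and Cox7a2 is the form found in most tissues. Cox7a1 lies at chr7:30184144-30186078 (plus strand, GRCm38). In enterocyte-like cells Cox7a1 measured 383, 585, 735, 422 and 605 CPM and in crypt cells 43.5, 95.1, 74.5, 56.4 and 77.6 CPM. All crypt values were far below all enterocyte-like values, with a log2 change of -2.98 ± 0.12 (SE, edgeR adjusted p = 9.05e-11) against -0.49 ± 0.10 for Cox7a2. The change of Cox7a2 was 0.06 with totals alone, whereas that of Cox7a1 stayed between -3.12 and -2.43 under every alternative run. Of the UMIs of Cox7a1, Cox7a2 and Cox7a2l together, Cox7a1 took 27.3% ± 2.85 in enterocyte-like cells (SD, n = 5), 18.3% ± 1.52 in immature enterocyte-like cells and 5.79% ± 0.639 in crypt cells. Cox7a2l, a related protein that links respiratory complexes, was at 0.08 on the log2 scale (edgeR adjusted p = 0.455).

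Cox7a1 was also counted in classes outside the absorptive line. It took 19.7% ± 2.23 of the family in goblet-like cells, 20.01% ± 2.04 in Paneth-like cells and 20.9% ± 2.21 in T cell-like cells (SD, n = 5). As CPM over all UMIs of the class, without TMM, it reached 359 to 577 in enterocyte-like, 187 to 396 in T cell-like, 19.6 to 98.0 in Paneth-like and 58.9 to 103 in crypt cells. T cell-like cells also held 0.967% to 2.68% of their UMIs in the 10 enterocyte markers, against 1.72% to 3.80% in enterocyte-like cells and 0.211% to 0.497% in crypt cells. The part of enterocyte RNA, whether free in droplets or from mixed cells, in the T cell-like value of Cox7a1 was not tested.

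The genes Atp5g1, Atp5g2 and Atp5g3 encode the same mature c subunit of the ATP synthase ring with different import sequences. Atp5g2 measured 165, 264, 391, 172 and 283 CPM in enterocyte-like cells and 314, 563, 627, 368 and 620 CPM in crypt cells, a log2 change of 0.99 ± 0.10 (SE, edgeR adjusted p = 6.49e-07) that was higher in crypt cells in 5 of 5 libraries. Atp5g1 rose by 0.48 ± 0.11 on the log2 scale, from 404, 732, 1112, 476 and 991 CPM to 517, 1231, 1268, 728 and 1380 CPM. Atp5g3 went the other way, from 1372, 1560.0, 1520 (sham 1, 2 and 3), 1702 and 1383 CPM (resection 1 and 2) to 1063, 1082, 954, 1050 and 859 CPM. Its log2 change was -0.59 ± 0.10, and -0.05 with totals alone. Of the UMIs of the 3 genes, Atp5g3 took 61.3% ± 10.2 in enterocyte-like cells and 41.2% ± 10.9 in crypt cells (SD, n = 5), Atp5g1 28.8% ± 8.26 and 39.4% ± 8.57, and Atp5g2 9.95% ± 2.16 and 19.4% ± 2.50. The Atp5g3 share overlapped between the classes, at 50.3% to 72.4% in enterocyte-like and 30.04% to 56.1% in crypt cells, and sham 1 and resection 1 had the higher shares in both.

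**Figure D3:**
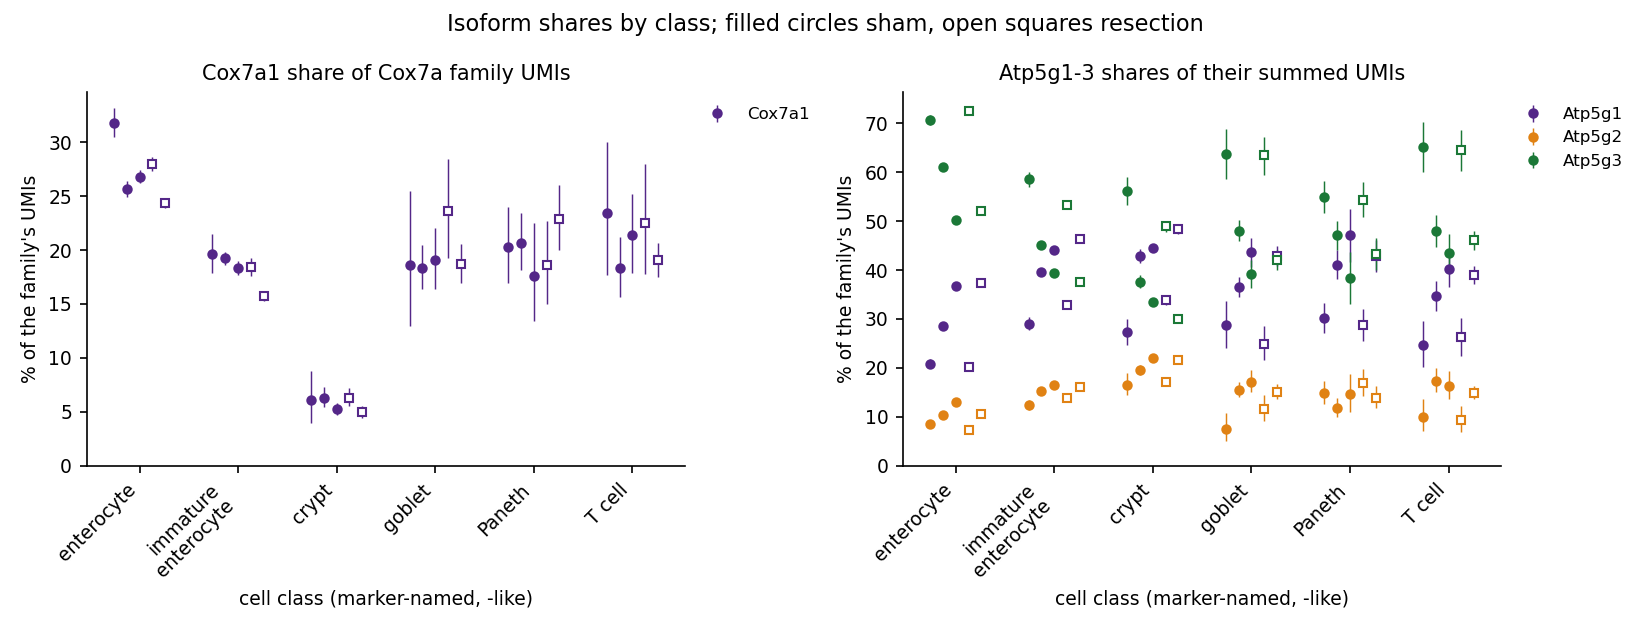
Share of Cox7a1 among UMIs of Cox7a1, Cox7a2 and Cox7a2l (left, %) and shares of Atp5g1, Atp5g2 and Atp5g3 among their summed UMIs (right, %), by cell class. Each point is a library (filled sham, open resection) and lines are exact 95% binomial intervals, which cover counting error only. The Cox7a1 share lies lowest in crypt cells, with a mean of 5.79% against 27.3% in enterocyte-like cells.

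The other isoform families were carried by 1 gene. Cox4i2 had 1 UMI and Cox6a2 had 13 UMIs in enterocyte-like cells of all 5 libraries, against 151554 for Cox4i1 and 98886 for Cox6a1. Cox8a took all UMIs of its family and Ndufa4 all UMIs of the pair with Ndufa4l2 in enterocyte-like and crypt cells. Cox6b2, the form of subunit 6b known from testis, took 0.390% of its pair with Cox6b1 in enterocyte-like cells and 0.660% in crypt cells.

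Upstream sequences are shown for Cox7a1 and Cox7a2, for the 3 genes of the c subunit and for the assembly factor with the largest change. They come from RefSeq (GRCm38.p6), run 5′ to 3′ on the gene's strand and leave out bases that any GENCODE exon covers. Capitals mark a match to 1 of 4 letter patterns: GCGCA and GCGC with any 1 base between them (NRF1), CCGGAAG (ETS factors), ATGGCGG (YY1) and TCAAGGTCA (ERR), searched on both strands; none of these patterns contains another. The windows are chr7:30183921-30184143 (plus strand) for Cox7a1, chr9:79759879-79760103 (minus) for Cox7a2, chr11:96075671-96075881 (minus) for Atp5g1, chr15:102671128-102671297 (minus) for Atp5g2, chr2:73911327-73911576 (minus) for Atp5g3 and chr4:24897833-24898082 (plus) for Ndufaf4.
Cox7a1: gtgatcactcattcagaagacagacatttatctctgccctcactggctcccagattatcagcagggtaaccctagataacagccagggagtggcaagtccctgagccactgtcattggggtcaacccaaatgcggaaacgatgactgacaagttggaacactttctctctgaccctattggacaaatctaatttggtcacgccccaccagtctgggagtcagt
Cox7a2: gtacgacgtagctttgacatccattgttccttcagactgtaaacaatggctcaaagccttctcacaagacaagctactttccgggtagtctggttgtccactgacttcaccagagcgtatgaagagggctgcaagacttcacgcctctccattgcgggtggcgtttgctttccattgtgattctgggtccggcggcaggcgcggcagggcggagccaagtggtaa
Atp5g1: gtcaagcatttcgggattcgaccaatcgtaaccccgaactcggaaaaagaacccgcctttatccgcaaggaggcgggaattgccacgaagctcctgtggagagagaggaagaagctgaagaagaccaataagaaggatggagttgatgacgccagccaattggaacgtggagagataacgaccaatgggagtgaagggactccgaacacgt
Atp5g2: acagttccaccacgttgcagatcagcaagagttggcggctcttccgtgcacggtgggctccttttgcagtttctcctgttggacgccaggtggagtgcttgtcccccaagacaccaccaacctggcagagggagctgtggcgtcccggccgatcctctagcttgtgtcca
Atp5g3: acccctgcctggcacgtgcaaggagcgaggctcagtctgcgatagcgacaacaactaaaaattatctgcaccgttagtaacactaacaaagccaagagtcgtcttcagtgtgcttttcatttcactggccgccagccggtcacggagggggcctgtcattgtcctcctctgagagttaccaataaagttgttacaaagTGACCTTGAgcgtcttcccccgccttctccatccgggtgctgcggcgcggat
Ndufaf4: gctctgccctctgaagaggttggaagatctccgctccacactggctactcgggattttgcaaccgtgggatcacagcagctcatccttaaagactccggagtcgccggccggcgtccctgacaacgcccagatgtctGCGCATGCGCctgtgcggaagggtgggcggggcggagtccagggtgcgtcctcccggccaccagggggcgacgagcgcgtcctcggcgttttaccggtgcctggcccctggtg
The printed Atp5g2 bases lie inside the GENCODE gene (chr15:102662864-102672352, minus strand), upstream of a RefSeq start within it. Cox7a1, Cox7a2, Atp5g1 and Atp5g2 held none of the 4 patterns in the printed bases. In these bases Atp5g3 held the ERR letters on the opposite strand and Ndufaf4 held the NRF1 letters. The promoter windows counted below also take in bases that are not printed here. In those windows Atp5g2 and Atp5g3 were scored as holding the NRF1 letters, and Cox7a1, Cox7a2 and Atp5g1 none of the 4 patterns. Cox7a1 had 3 CpG pairs in 223 bases and Cox7a2 had 12 in 225.

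Promoters of the family were matched to RefSeq for 77 of 96 nuclear genes, in windows of 300 bases (250 before and 50 after the start). The NRF1 letters were in 27.3% of them, against 7.17% of 17492 protein-coding genes. The ETS letters were in 26.0% against 12.9% and the YY1 letters in 15.6% against 6.05%. The ERR letters were in only 2 of 77 (2.60%), against 66 of 17492 (0.377%). The median share of G and C bases was 58.3% in members and 56.3% in protein-coding genes. Among genes called higher in crypt cells 6 of 22 held the NRF1 letters, and among those called lower 9 of 27 did. A match is a description of letters and not a binding site.

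Genes that serve the chain without being part of it were also compared between crypt and enterocyte-like cells. Of all genes tested, 38.8% were called higher in crypt cells and 41.0% lower (54.4% and 25.6% with totals alone). The lists were chosen with earlier results of these data known. Of 76 mitochondrial ribosomal protein genes tested, 68 were called higher in crypt cells and 2 lower (median log2 change 1.13), led by Mrps27 (2.97) and Mrpl19 (2.52). Of 19 genes of mitochondrial DNA copying, transcription and translation, 15 were called higher and 2 lower, with Tfam, which packages mitochondrial DNA, at 1.85 and the single-strand binding protein gene Ssbp1 at 2.27. Of 29 further assembly genes 13 were higher and 6 lower (19 and 0 with totals alone), with Bcs1l, which inserts the iron-sulfur protein of complex III, at 2.91. The count higher in this list is near the share of all genes. On the same TMM scale the mitochondrial transcripts themselves were lower in crypt cells.

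Genes for fuel entry went both ways. Of all genes, 38.8% were called higher and 41.0% lower (54.4% and 25.6% with totals alone). Counts near these shares, as for the citric acid cycle genes and the transcription regulators, are no result about a list. Of 15 citric acid cycle genes 4 were called higher and 6 lower (9 and 6 with totals alone), with Ogdh at -2.14 and citrate synthase (Cs) at -1.88 on the log2 scale. Of 13 companions of the chain 1 was called higher and 8 lower (6 and 4 with totals alone): Dhodh, the pyrimidine synthesis enzyme that feeds electrons to the chain, was at 3.03, Gpd2 at -1.50 and cytochrome c (Cycs) at -1.15. Of 10 transcription regulators 5 were higher, among them Myc (4.99) and Pprc1 (4.64), and 2 were lower, Ppargc1a (-2.39) and Esrra (-1.36). Each companion gene named here kept its direction with totals alone.

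The 5 libraries differed from each other in these genes more by set than by surgery. In enterocyte-like cells, 72 of 90 nuclear genes (80.0%) were lower in both set A libraries than in every set B library, against 21.3% of all genes, and 1, Atp5e, was higher. The median log2 ratio of set A to set B was -0.81 for nuclear genes and 0.08 for all genes. Of the 13 mitochondrial genes, 10 (76.9%) were higher in both set A libraries than in every set B library, against 24.6% of all genes, with a median of 0.41. The 3 others were mt-Nd1, mt-Atp8 and mt-Cytb. In crypt cells, 76 of 90 nuclear genes were lower in set A (25.1% of all genes) and 8 of 13 mitochondrial genes were higher (24.7%). Since the sets were chosen with values known, these are descriptions.

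Uqcrb, picked after its values were seen, had the widest set difference among nuclear genes at -1.80 log2: 338 CPM in sham 1 and 626 in resection 1, against 1484, 1870 and 1678 in sham 2, sham 3 and resection 2. All 3 set B values lay far above both set A values. Cox4i1 was closer, at 2682 and 2840 CPM in sham 1 and resection 1 and 3661, 4230.0 and 3903 CPM in sham 2, sham 3 and resection 2. Among mitochondrial genes, mt-Nd3 stood at 2208 and 1797 CPM in set A and at 869, 650.0 and 603 CPM in set B. mt-Nd6, which is encoded on the opposite strand to the other mitochondrial genes, stood at 17.2 and 10.6 CPM in set A and at 2.03, 2.70 and 3.18 CPM in set B; whether the counting used strand is not given in the sources used here.

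Several measures moved with the set. The lowest number of UMIs in any cell was 3963 and 3796 in sham 1 and resection 1 and 2354, 3153 and 2518 in the other libraries. Nuclear members are short: the median transcript was 714.75 bases against 2104 for other genes, and when all genes were cut into 4 equal bins by length, 73 of 90 were in the shortest bin. Genes outside the family in that bin had a median set ratio of -0.32 and members in it -0.84. In the longest 3 bins, other genes had -0.04, 0.20 and 0.31, and members, 10, 6 and 1 in number, had -0.57, -0.58 and -1.06. In enterocyte-like cells 63 of 76 mitochondrial ribosomal protein genes (82.9%) and 10 of 13 chain companions (76.9%) were also lower in set A. The share of all genes was 21.3%. Of citric acid cycle genes 6 of 15 (40.0%) were lower there, with a median set ratio of -0.17. The part of transcript length or of depth in the set difference was not tested.

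**Figure D4:**
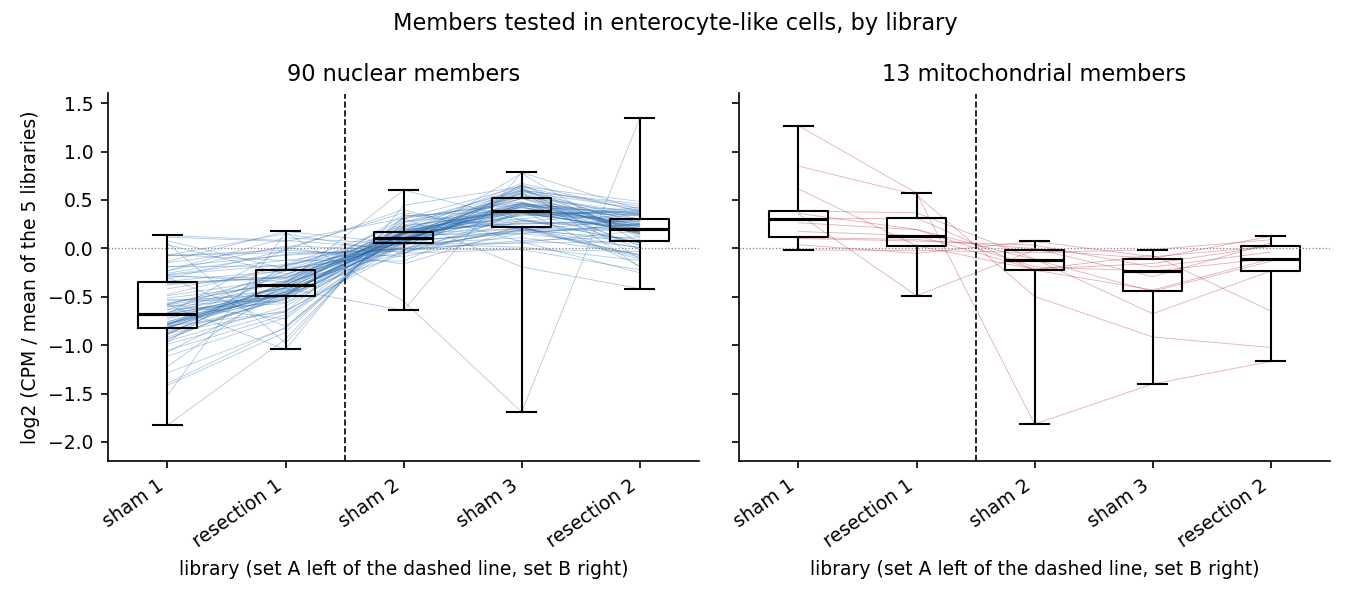
Level of each tested oxidative phosphorylation gene in enterocyte-like cells of each library, as log2 of its CPM over its mean in the 5 libraries (y axis), for 90 nuclear genes (left) and 13 mitochondrial genes (right). Thin lines are genes, boxes show the median and quartiles with whiskers to the lowest and highest gene, and the dashed line parts set A from set B. Nuclear boxes lie low and mitochondrial boxes high in sham 1 and resection 1.

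Surgery was compared over the 3 sham and 2 resection libraries. In enterocyte-like cells the mitochondrial share averaged 10.8% ± 3.27 after sham surgery (SD, n = 3) and 11.1% ± 1.87 after resection (SD, n = 2), a difference of 0.260 points that was smaller than either SD. Within set A the difference was -2.09 points and within set B 0.774 points, so its direction was not shared. The nuclear share averaged 5.37% ± 0.955 and 5.09% ± 0.895, a difference of -0.278 points (0.0645 within set A, -0.133 within set B). The log2 ratio of mitochondrial to nuclear UMIs averaged 1.15 ± 0.73 and 1.29 ± 0.53. The groups overlapped in all 3 measures in enterocyte-like, immature enterocyte-like, crypt and T cell-like cells. They did not overlap in the mitochondrial share of all epithelial cells together, which was 8.81%, 8.00% and 7.34% in sham 1 to 3 and 10.2% and 9.13% in resection 1 and 2, with a difference of 1.38 points within set A and 1.47 within set B. This value pools classes whose sizes differed between libraries: Paneth-like cells, which had the lowest mitochondrial share, were 16.8%, 6.54% and 4.28% of cells after sham surgery and 4.79% and 3.95% after resection, which overlap. The pool weights cells by their UMIs. Paneth-like cells held 4625289 of its 10712420 UMIs in sham 1 and 4020678 of 25664831 in resection 1. Within set A the mitochondrial share was lower after resection in immature enterocyte-like (-2.86 points), crypt (-2.46), goblet-like (-1.83) and Paneth-like cells (-0.253), as in enterocyte-like cells. Within set B the same classes differed by 1.43, 0.706, 1.41 and 2.02 points. The part of class makeup in the difference was not tested. The T cell-like share differed by 0.993 points within set A and 1.36 within set B, on 34 and 32 cells in sham 1 and resection 1.

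No oxidative phosphorylation gene passed the test as designed for resection against sham surgery in any of the 3 classes. In enterocyte-like cells 0 of 10190 genes (0.0%) passed an adjusted p of 0.05 in edgeR's quasi-likelihood test, and 536 (5.26%) had an unadjusted p under 0.05; of the family, 0 passed and 1 had an unadjusted p under 0.05. DESeq2 also called 0 members, while edgeR called 1, Cox6b2, without the filter on low counts (log2 difference 2.00) and among cells with at most 10% mitochondrial counts (2.37). The nuclear median was -0.14 log2 (all genes -0.02), with 7 genes above 0 and 83 below, and the mitochondrial median -0.01. Leaving out resection 1 turned the nuclear median to 0.15 and leaving out resection 2 moved it to -0.53. In immature enterocyte-like cells 0 of 10153 genes (0.0%) passed, and in crypt cells 0 of 9689 (0.0%), with nuclear medians of -0.03 and -0.05 log2. Genes with an unadjusted p under 0.05 made up 1.34% and 1.53% of those tested there. Groups did not overlap for 4 of 90 nuclear genes in enterocyte-like cells (4.44%), against 19.4% of all genes, and for none of the 13 mitochondrial genes.

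The nuclear genes with the lowest p in enterocyte-like cells were Cox6b2, Atp5s, Ndufaf2, Ndufaf6 and Ndufa10. Cox6b2 measured 1.89, 3.72 and 1.67 CPM in the sham libraries and 6.08 and 13.8 CPM in the resection libraries. Both resection values were above all sham values, with a log2 difference of 1.97 ± 0.50 (SE, edgeR quasi-likelihood, adjusted p = 0.509). These levels rest on 7, 22 and 13 UMIs after sham surgery and on 68 and 195 after resection. The 10 enterocyte markers took 1.72%, 2.78% and 2.16% of UMIs in these cells after sham surgery and 3.67% and 3.80% after resection, and the nuclear RNAs 1.72%, 1.55% and 1.63% against 2.22% and 1.83%. Both lists moved with the surgery groups without overlap, and their part in the Cox6b2 difference was not tested. Atp5s was at -0.86 ± 0.37 (edgeR adjusted p = 0.942), and Ndufaf2, Ndufaf6 and Ndufa10 at -0.82, -0.63 and -0.33. Cox6b2 also had the lowest p of the nuclear genes in immature enterocyte-like cells, at 0.89 ± 0.59, and Ndufaf7 in crypt cells, at -0.46 ± 0.29 (edgeR adjusted p = 0.9996).

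Whether surgery acted differently in crypt and enterocyte-like cells was tested as an interaction. Of 9627 genes, 4 (0.0415%) passed an adjusted p of 0.05 in edgeR, and 1 of these, Cox6b2, was an oxidative phosphorylation gene. At an unadjusted p under 0.05 there were 769 genes (7.99%), 2 of them nuclear members, 1 in each direction. The resection difference of Cox6b2 was lower in crypt cells, with an interaction of -2.68 ± 0.44 on the log2 scale (SE, adjusted p = 0.0478). In crypt cells it measured 6.69, 8.70 and 9.18 CPM after sham surgery and 2.86 and 8.45 CPM after resection, from 4, 15 and 41 UMIs and 10 and 37 UMIs. These groups overlap in crypt cells, and the call was lost without sham 2, without sham 3 and without resection 1, at -3.04, -2.11 and -2.55, and with DESeq2 size factors or no mitochondrial limit on cells, at -2.63 and -2.70. DESeq2 itself gave no adjusted p for it. The median interaction was 0.03 log2 for nuclear and -0.09 for mitochondrial genes.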

How the data were processed

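Single-cell 3′ RNA sequencing of 5 libraries (3 sham, 2 resection) was deposited by the authors as whole-number UMI counts per gene and cell, not normalized. Counts were made with 10x Genomics Cell Ranger, per the labels, which mark the version with a question mark; the submitters' processing notes name the builds mm10 and GRCm38. Read assignment and strand settings are not given in the sources used here.

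Cells with fewer than 500 genes or over 20% mitochondrial counts were left out (19404 cells in, 18955 passing), and 720 likely doublets were removed by comparison with simulated doublets. Of cells with at least 500 genes, those over 20% were 7.43%, 2.13% and 0.42% in sham 1 to 3. They were 2.37% and 1.57% in resection 1 and 2. The 18235 cells kept were clustered (2000 variable genes without the oxidative phosphorylation genes, 30 components, resolution 1). Cluster names rest on marker lists, whose scoring rule was set after seeing the data. Where the enterocyte and immature enterocyte scores lay within 0.1, the top 10 genes decided, and in favour of enterocyte when those tied, as for cluster 6. No cluster had more markers of another class than of its own among its top genes.

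UMIs were summed per library and class and tested with edgeR 4.0.16 (TMM, filterByExpr, quasi-likelihood F-test, two-sided, Benjamini-Hochberg over all genes tested, threshold 0.05), in R 4.3.3. Resection against sham used 5 sums; crypt against enterocyte used 10 sums with the library as a block; the interaction added the class-by-surgery term. DESeq2 1.42.0, other scalings, filters, clusterings and left-out libraries were alternatives. The code was tested on simulated data. Shares over the family carry no p. Members, gene lists and library sets were chosen with earlier results of these data known. Named genes were every mitochondrial gene, the 2 most abundant nuclear genes per complex, isoform families, the 5 lowest p for surgery, the 5 largest class changes each way among called genes with a mean of at least 20 CPM, the lowest p in the 2 other classes and any interaction call; assembly factors were described as a whole list. Depth per library was 11749028 to 41281731 UMIs. Binomial intervals (exact, 95%) cover counting error only.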

Additional observations from a re-analysis of the deposited data

Results flagged for a closer look

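Cox6b2, the testis form of complex IV subunit 6b, had a resection difference that was not the same in crypt and enterocyte-like cells: the interaction was -2.68 ± 0.44 on the log2 scale (SE, edgeR quasi-likelihood, adjusted p = 0.0478), from 305 UMIs in enterocyte-like and 107 UMIs in crypt cells over 5 libraries. In enterocyte-like cells both resection libraries lay above all sham libraries, and resection 2 alone held 195 of the 305 UMIs. In crypt cells the groups overlapped. Over 14 alternatives that gave a value, the interaction ranged from -3.05 to -2.11 and its call was lost in 5.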

How the results depend on the processing

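For resection against sham, calls among members went from 0 to 1 in enterocyte-like cells without a filter on low counts and with at most 10% mitochondrial counts per cell (Cox6b2 in each). Replicate numbers in the labels gave 2 shared pairs. Over genes, deviations from the group means correlated at 0.596 for sham 1 and resection 1 and at 0.181 for sham 2 and resection 2. For sham 3 they correlated at 0.529 with resection 2 and at -0.529 with resection 1. With only 2 resection libraries, the deviations of each mirror those of the other. These values therefore cannot show whether the numbers pair the libraries. With the number as a replicate block, sham 3 had no partner, so only the 2 shared pairs carried the surgery difference. In that fit 1 member was called in enterocyte-like cells (Cox6b2, 1.76), against 0 as designed. In crypt cells 2 were called (mt-Atp8, -0.75, and mt-Nd4l, -0.93, both with uncertain counts), also against 0. The share of all genes called in that fit is not given here, so these counts cannot be set against it. For the mitochondrial share, nuclear share and log2 ratio, values without 1 library ran from -1.07 to 2.10, -0.91 to 0.35 and -0.23 to 0.54.

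For crypt against enterocyte-like cells, 70 members were called. With at most 10% mitochondrial counts the total was 42, with 10 nuclear and 6 mitochondrial genes lower. Of all 8545 genes tested at that limit, 38.5% were called higher and 36.9% lower. With totals alone, an alternative chosen after seeing the data, 59 nuclear genes were higher, 2 nuclear and 3 mitochondrial lower. With no filter on low counts 12 nuclear genes were higher. Leaving out 1 library gave totals of 57 to 71, nuclear higher 15 to 25 (15 without resection 2), nuclear lower 29 to 38 and mitochondrial lower 10 to 13. With totals alone these log2 changes turned positive: mt-Nd1 (0.22), mt-Nd2 (0.09), mt-Nd4l (0.43), Ndufa2 (0.30), Sdhb (0.011), Sdha (0.18), Uqcrq (0.074), Cox6a1 (0.009), Atp5j2 (0.20), Atp5b (0.19), Cox6b1 (0.21), Cox7a2 (0.056) and Cox8a (0.16). Of 34 named members called, 11 kept their call and direction in every alternative. The mitochondrial share difference of -1.66 points was -0.97 with at most 10% mitochondrial counts and -1.49 with doublets kept, and -1.70 to -1.61 without 1 library.

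The interaction call was 0 with DESeq2 size factors, with the DESeq2 test and with no mitochondrial limit, and 0 to 1 without 1 library. The set difference was -0.68 to -0.51 for nuclear and 0.18 to 0.71 for mitochondrial genes under other scalings and cell filters. The cause of these changes was not tested, except that fewer cells remain at the 10% limit. Depth limits Cox6b2 and mt-Nd6, with few UMIs in several libraries. It also limits low genes such as Sdhaf3, Ndufaf5, Ndufaf6 and Atp5s. In sham 1 these had 6, 12, 17 and 17 UMIs in enterocyte-like cells and 3, 3, 10 and 1 in crypt cells.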
